A study of Bos grunniens with 18 samples.

Results

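The histone genes of the yak testis are described here at 3 ages. They were taken from the deposited gene table as every entry whose symbol starts with H1, H2A, H2B, H3 or H4, or has the older HIST form, and whose description names a histone. This gave 121 gene IDs with 73 different symbols, of 22183 gene IDs in the table. By symbol, 52 of the 121 IDs were assigned to the replication-dependent histones, 10 to the replacement histones and 14 to the testis or germ line variants. The other 45 carried a common histone symbol only because their protein matched one, and 34 of these had no count in any library. Names also rest on a protein match for 2 replacement IDs and for 6 testis IDs, which are 1 of H1-7 (ENSBTAG00000053875), that of H2AB2 and the 4 of H2BW1 and H2BW2, so that 53 IDs in all are named this way.

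Histones package DNA into nucleosomes, each a core of H2A, H2B, H3 and H4 proteins sealed by a linker histone, H1. Most of these proteins come from replication-dependent genes, which lie in clusters, are transcribed in S phase and give mRNAs that end in a stem-loop in place of a poly(A) tail. Replacement histones such as H3.3 and H2A.Z are made throughout the cell cycle from ordinary polyadenylated mRNAs. In mammalian testes a further set of variants appears during meiosis and in spermatids, the haploid cells that follow it, before most histones give way to transition proteins and then to protamines.

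Testes were collected by castration under anaesthesia from 9 healthy male yaks (Bos grunniens) of 1 cooperative, 3 animals at 6 months (Y6M), 3 at 18 months (Y18M) and 3 at 4 years (Y4Y). No animal carried a treatment or an engineered allele. Each animal gave 1 library of RNA depleted of ribosomal RNA, a method that does not select poly(A) tails. The stage words in the labels attach infancy to the 4-year animals, adolescence to the 6-month animals and adulthood to the 18-month animals, so ages were taken from the sample titles. The tissue was whole testis, and in such bulk RNA fewer cells of a type and less RNA per cell cannot be told apart.

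Libraries held between 22950630 and 33123856 estimated counts over all genes. The histone genes took between 0.445% and 1.10% of them. Levels are given in CPM, counts brought to one common library total over the tested genes, after scaling by the trimmed mean of M values (TMM). Defining markers of the labelled tissue were present at every age: the Sertoli cell list summed to 8154, 8702 and 9706 CPM at 6 months, to 1296, 3976 and 1931 CPM at 18 months and to 965, 1047 and 1014 CPM at 4 years. Markers of round spermatids summed to between 3.80 and 6.54 CPM at 6 months, to 1659, 228 and 855 CPM at 18 months and to between 1684 and 1907 CPM at 4 years. The 18-month animals thus stood between the other ages in both lists, number 1 nearest to the 4-year animals and number 2 nearest to the 6-month ones, and results that rest on it or on number 1 are given with and without that library.

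The classes moved apart with age. The summed level of testis or germ line histones was 19.5 ± 6.61 CPM at 6 months, 962 ± 833 CPM at 18 months and 1849 ± 263 CPM at 4 years (SD, n = 3 each). The single 18-month animals gave 1854, 203 and 828 CPM, all above the highest 6-month sum of 26.2 CPM. Replication-dependent histones summed to 5080 ± 830 CPM at 6 months, 6834 ± 1015 CPM at 18 months and 5080 ± 427 CPM at 4 years. With TMM scaling their 4-year and 6-month sums therefore had the same mean, although single genes differed several-fold in both directions, as described below. The TMM factors were 0.809 to 0.882 at 6 months and 1.01 to 1.10 at 4 years. Scaling by library size alone would raise the 4-year sums relative to the 6-month ones, so the equal means rest on TMM. Replacement histones summed to 1075 ± 75.2 CPM at 6 months, 1096 ± 213 CPM at 18 months and 1203 ± 78.6 CPM at 4 years, and with TMM scaling the ages overlapped. With library size alone the 6-month mean was 914 CPM. With that or relative log expression scaling, all 6-month sums lay below all 4-year sums, so the overlap of these 2 ages rests on TMM. The overlap also does not mean that the single members were stable. The sum includes H3-3D, which had at most 1.01 CPM at 6 months and between 409 and 472 CPM at 4 years. Of the 8 tested replacement members, 5 were lower and 2 higher at 4 years than at 6 months (edgeR adjusted p under 0.05). Of all genes tested, 37.2% were lower and 36.7% higher. With library size alone or relative log expression scaling, 4 members were lower and 3 higher, as with DESeq2, which tested 10.

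**Figure D1:**
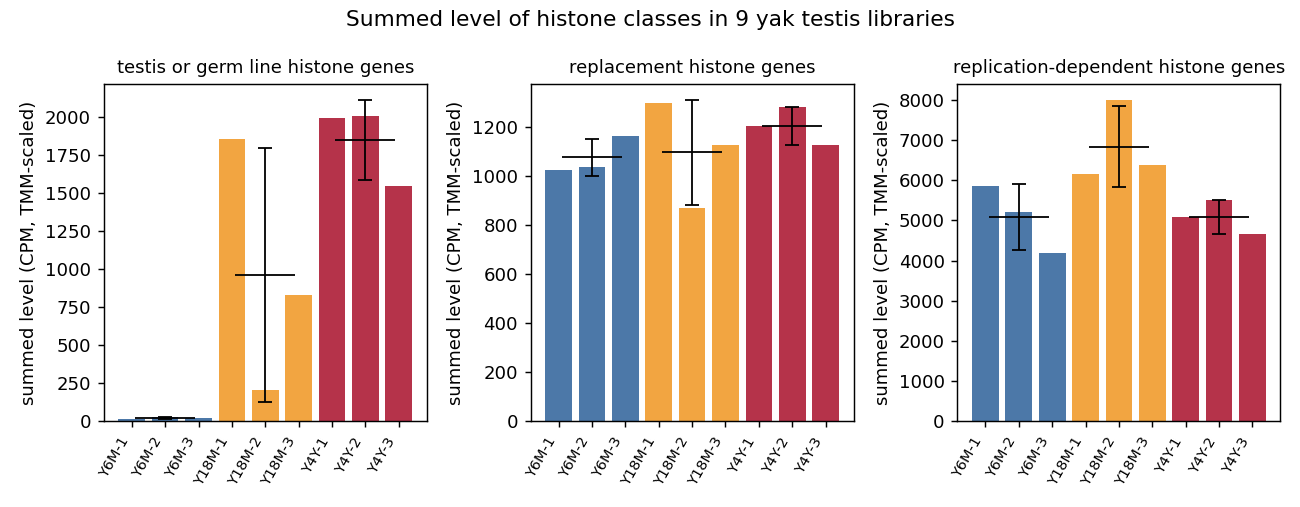
Summed CPM of all members of 3 histone classes in each of 9 libraries, with 1 bar per library and black marks at the mean ± SD of 3 animals per age. The testis class lies at 1546 CPM or more in the 4-year libraries and at or below 26.2 CPM in the 6-month ones, while library Y18M-2 has the lowest testis sum of its age (203 CPM) and the highest replication-dependent sum of all 9 (8000 CPM).

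Of the 121 members, 73 had enough counts to be tested. At 18 months, 37 of the 73 were called against 6 months (50.7%; 24 higher and 13 lower), where 59.9% of all 16742 genes tested were called at an adjusted p of 0.05 (edgeR quasi-likelihood test, Benjamini-Hochberg). At 4 years, 51 of the 73 were called against 6 months (69.9%; 23 higher and 28 lower), where 73.9% of all genes tested were called. The shares of members called were thus somewhat below those of all genes in both comparisons. Between 4 years and 18 months no member was called, and 0.00597% of all genes tested were called, which is 1 gene. In that comparison 24 of the 73 members (32.9%) had an unadjusted p under 0.05, as did 21.3% of all genes tested. DESeq2 called 3 of the 85 members it tested (3.53%), below its 4.47% of all genes.

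Of the testis or germ line variants, 13 of 13 tested members were higher at 18 months and 13 of 13 at 4 years, both against 6 months. Over all genes, 32.7% were higher at 18 months and 36.7% at 4 years. The 4 members with no count at 6 months, and others with very few, passed the count filter only through the later ages. These could only be called higher, so their direction was set by the filter. The median log2 fold change of these 13 members was 7.50 at 18 months and 8.10 at 4 years, against medians of 0.02 and -0.06 over all genes tested. With the 4 members that had no count at 6 months set to the bound that 3 counts allow, the medians were 5.77 and 5.84. The remaining testis member, a second ID of H1-7 (ENSBTAG00000048712), had too few counts to be tested, with 17 counts at 6 months, 104 at 18 months and 0 at 4 years over the 3 animals of each age.

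The linker variants H1-9 and H1-7 were the most abundant genes of the testis class at 4 years. H1-9 (ENSBTAG00000043979), the spermatid linker histone known in mouse as Hils1, had 0, 0.26 and 0.50 CPM at 6 months, 770, 37.8 and 285 CPM at 18 months and 975, 889 and 677 CPM at 4 years. H1-7 (ENSBTAG00000053875), a linker histone of elongating spermatids in mouse, had 0.042, 0 and 0.731 CPM at 6 months, 584, 24.9 and 171 CPM at 18 months and 518, 627 and 428 CPM at 4 years. Both were near 0 in every 6-month testis, varied by more than an order of magnitude among the 18-month testes and were high in each 4-year testis. H1-9 had a log2 fold change of 10.48 ± 1.38 (SE) at 18 months and of 11.70 ± 1.43 at 4 years, both over 6 months (edgeR adjusted p = 0.000353 and 0.000153). For H1-7 it was 9.99 ± 1.53 at 18 months and 11 ± 1.58 at 4 years (edgeR adjusted p = 0.000688 and 0.000309).

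H1-6 (ENSBTAG00000011671) encodes H1t, the linker histone that mouse and human spermatocytes take up in mid-meiosis. It already had 2.75, 9.97 and 6.77 CPM at 6 months, with 111, 33.8 and 91.4 CPM at 18 months and 135, 123 and 110 CPM at 4 years. The 18-month range thus lay wholly above the 6-month range, and its spread was smaller than that of H1-7 and H1-9. The log2 fold change was 3.60 ± 0.55 at 18 months and 4.24 ± 0.56 at 4 years over 6 months (edgeR adjusted p = 0.000669 and 0.000217). H1-8 (ENSBTAG00000001812), known in mouse as the oocyte linker histone, was also detected. It had 0.760, 0.347 and 0.366 CPM at 6 months, 41.3, 8.21 and 32.0 CPM at 18 months and 27.2, 32.1 and 26.4 CPM at 4 years. Its log2 fold change was 5.77 ± 0.65 at 18 months and 5.84 ± 0.65 at 4 years over 6 months (edgeR adjusted p = 0.000172 and 0.000105).

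Among core variants, H2AC1 (ENSBTAG00000046992), the testis H2A that mouse spermatocytes incorporate, had 4.52, 5.81 and 3.15 CPM at 6 months, 66.0, 9.34 and 92.4 CPM at 18 months and 77.2, 73.7 and 61.8 CPM at 4 years. Animal 2 was well below the other 18-month testes and still above all 6-month testes. The log2 fold change was 3.64 ± 0.70 at 18 months and 3.98 ± 0.71 at 4 years over 6 months (edgeR adjusted p = 0.00222 and 0.000989). H2AB2 (ENSBTAG00000048126), a short H2A of the Barr-body-deficient type, had no count at 6 months, 11.4, 4.65 and 7.30 CPM at 18 months and 12.5, 8.90 and 7.56 CPM at 4 years. Against 3 counts over the 6-month group it was at least 179-fold higher at 18 months and at least 222-fold higher at 4 years (edgeR adjusted p = 0.000113 and 6.88e-05).

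H2BL1 (ENSBTAG00000012775), an H2B variant whose bovine protein is known from the subacrosomal region of spermatids, had 0, 0 and 0.091 CPM at 6 months, which was 2 counts in all. It had 152, 5.58 and 53.4 CPM at 18 months and 165, 173 and 140 CPM at 4 years. The ratio to 6 months was 2434 at 18 months (95% counting interval 674 to 20100) and 5505 at 4 years (1524 to 45460). The 4 IDs named H2BW1 and H2BW2, testis H2B genes known from human spermatogenic cells, stayed low. They lay between 0.205 and 6.27 CPM at 18 months and between 1.02 and 5.66 CPM at 4 years. At 6 months 3 of these 4 had no count and H2BW1 (ENSBTAG00000046436) had 1. The 3 were at least 18.8-fold, 19.8-fold and 20.8-fold higher at 18 months and at least 29.2-fold, 28.2-fold and 30.7-fold higher at 4 years, for H2BW1 (ENSBTAG00000017978), H2BW2 (ENSBTAG00000016019) and H2BW2 (ENSBTAG00000032696) in that order. For the H2BW1 ID with 1 count the ratio was 236 at 18 months (95% counting interval 42.3 to 9310) and 273 at 4 years (49.0 to 10770).

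The H3 variants differed from this pattern. H3-4 (ENSBTAG00000055153), a testis H3 that mouse spermatogonia carry, had 4.56, 9.71 and 6.77 CPM at 6 months, 85, 67.7 and 73.2 CPM at 18 months and 54.1, 48.5 and 73.9 CPM at 4 years. It was the tested testis variant with the smallest log2 fold change at 4 years, 3.07 ± 0.30 over 6 months, and with 3.42 ± 0.31 at 18 months (edgeR adjusted p = 6.79e-05 and 7.43e-05). The 18-month animals lay close together, animal 2 included, where those of H1-9 differed by over an order of magnitude. H3-5 (ENSBTAG00000017016), an H3.3-like gene expressed in human testis, had 0.296, 0.087 and 0.320 CPM at 6 months, 17, 9.31 and 17.6 CPM at 18 months and 24.7, 23.8 and 14.8 CPM at 4 years. Its log2 fold change was 5.94 ± 0.50 at 18 months and 6.47 ± 0.51 at 4 years over 6 months (edgeR adjusted p = 6.31e-05 and 3.80e-05).

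**Figure D2:**
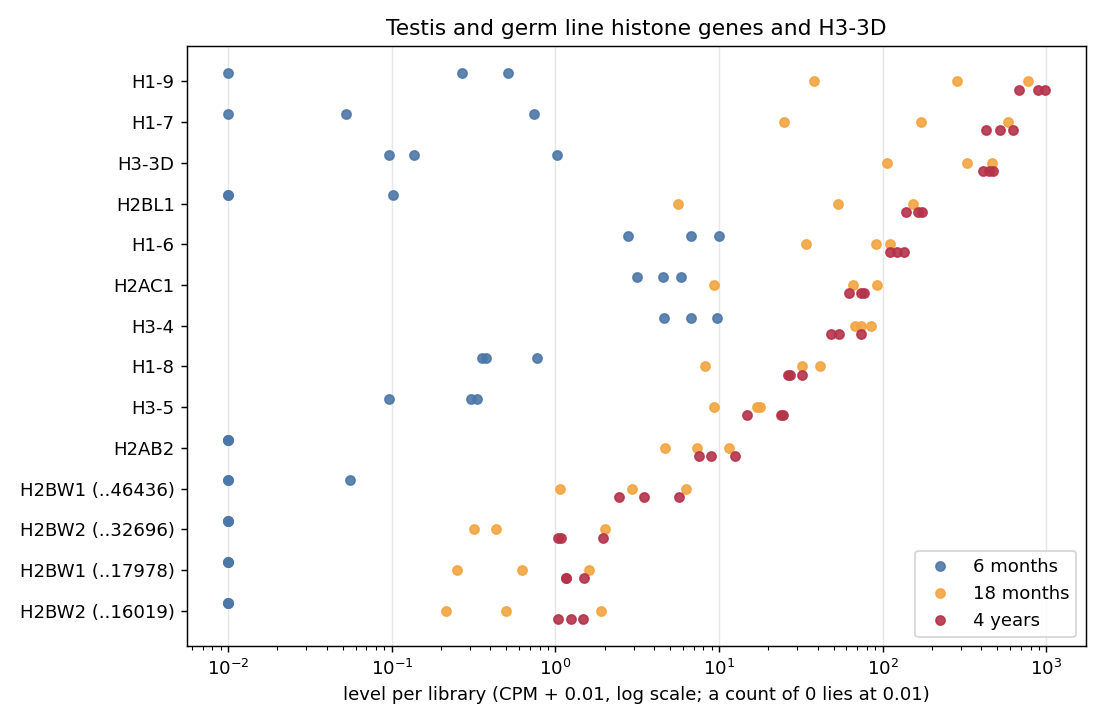
Level of the 13 tested testis or germ line histone genes and of H3-3D in each library, as CPM + 0.01 on a log axis, with 3 points per age. The 6-month points lie left of all 18-month and 4-year points for every gene shown, and the 18-month points spread widely for H1-9 (37.8 to 770 CPM) and narrowly for H3-4 (67.7 to 85 CPM).

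Genes of the later packaging proteins, of meiotic prophase and of round spermatids moved with these variants. All 6 genes of the transition protein and protamine list were higher at 18 months and at 4 years than at 6 months. PRM1, which encodes a protamine, had 0.380, 0.260 and 0.274 CPM at 6 months, 288, 12.5 and 96.5 CPM at 18 months and 490, 479 and 378 CPM at 4 years. The whole list summed to 2506, 116 and 942 CPM in the 18-month animals, the same order of animals as for H1-9. All 10 meiotic prophase genes were higher at both later ages, with sums of 10.4 to 23.2 CPM at 6 months, 1130, 535 and 891 CPM at 18 months and 1038 to 1210 CPM at 4 years. All 10 round spermatid markers were higher as well, and 8 of 11 Sertoli cell IDs and 10 of 10 Leydig cell IDs were lower at 18 months than at 6 months. Markers of undifferentiated spermatogonia summed to 418 ± 68.8, 221 ± 116 and 123 ± 9.27 CPM at the 3 ages in order. Of 8 tested, 3 were higher and 2 lower at 18 months, and 2 higher and 2 lower at 4 years. For comparison, 32.7% of all genes tested were higher and 27.1% lower at 18 months, and 36.7% higher and 37.2% lower at 4 years. The part of these cell type differences in the histone results was not tested.

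Replacement histones held 1 gene with the pattern of the testis class. H3-3D (ENSBTAG00000011508), annotated as an H3.3 gene, had 0.127, 0.087 and 1.01 CPM at 6 months, 467, 106 and 327 CPM at 18 months and 448, 472 and 409 CPM at 4 years. It was near 0 in every 6-month testis and among the highest H3 genes in all later ones. The log2 fold change was 9.53 ± 0.98 at 18 months and 10.10 ± 0.99 at 4 years over 6 months (edgeR adjusted p = 0.000116 and 6.72e-05). The other H3.3 genes behaved differently. H3-3A (ENSBTAG00000024561) had 156, 141 and 165 CPM at 6 months, 89.7, 102 and 91.8 CPM at 18 months and 94.8, 99.8 and 87.5 CPM at 4 years. It fell by 0.70 ± 0.15 at 18 months and by 0.71 ± 0.15 at 4 years on the log2 scale (edgeR adjusted p = 0.00329 and 0.00213), although at 18 months the call was lost with scaling by library size alone (adjusted p = 0.126).

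H3-3B (ENSBTAG00000024909) had 248, 255 and 274 CPM at 6 months, 408, 338 and 358 CPM at 18 months and 355, 401 and 345 CPM at 4 years. It rose by 0.51 ± 0.16 at 18 months and by 0.50 ± 0.16 at 4 years on the log2 scale (edgeR adjusted p = 0.024 and 0.0194). Without Y6M replicate 1 the adjusted p was 0.0884 at 18 months and 0.0737 at 4 years, and without Y6M replicate 2 it was 0.0746 and 0.0626. The 18-month call was also lost without Y6M replicate 3 (0.0525) or Y18M replicate 3 (0.0584), and the 4-year call without Y4Y replicate 2 (0.0739).

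H1-10 (ENSBTAG00000040116), a replacement linker histone expressed in many tissues, had 88.4, 87.8 and 89.0 CPM at 6 months, 21.2, 40.0 and 30.2 CPM at 18 months and 23.9, 28.3 and 18.0 CPM at 4 years. All later libraries lay below all 6-month ones. It fell by 1.54 ± 0.26 at 18 months and by 1.92 ± 0.26 at 4 years on the log2 scale (edgeR adjusted p = 0.00105 and 0.000236).

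Of the H2A replacement genes, H2AJ changed most. H2AJ (ENSBTAG00000030503), an H2A variant known to accumulate in senescent human cells, had 71.7, 78.2 and 73.1 CPM at 6 months, 41.7, 33.5 and 34 CPM at 18 months and 37.7, 42.3 and 40.1 CPM at 4 years. It fell by 1.03 ± 0.15 at 18 months and by 0.89 ± 0.15 at 4 years on the log2 scale (edgeR adjusted p = 0.000597 and 0.000767). H2AZ1 (ENSBTAG00000004428), 1 of the H2A.Z genes, had 84.6, 66.5 and 52.5 CPM at 6 months, 116, 77.3 and 114 CPM at 18 months and 102, 104 and 86.1 CPM at 4 years. Its log2 fold changes of 0.59 ± 0.23 and 0.52 ± 0.23 did not pass (edgeR adjusted p = 0.05, just above the threshold, and 0.0661), but without Y18M replicate 2 they did (0.00277 and 0.00779), as they did without Y6M replicate 1 (0.0313 and 0.0338). Both were also called with relative log expression scaling (0.0377 and 0.0322), library size alone (0.00509 and 0.0102) and DESeq2 (0.0272 and 0.0243), and the 4-year one with only the libraries of those ages (0.00674). The other H2A.Z gene, H2AZ2 (ENSBTAG00000016975), had 101, 90 and 80.2 CPM at 6 months, 83.9, 74.9 and 85.1 CPM at 18 months and 64.4, 68.3 and 58.6 CPM at 4 years. It was called lower at 4 years than at 6 months (-0.50 ± 0.15, edgeR adjusted p = 0.0153), a call that was lost under relative log expression scaling (0.104), scaling by library size alone (0.244) and DESeq2 (0.106), and without Y6M replicate 1 (0.0695) or Y4Y replicate 3 (0.0595).

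The remaining replacement IDs, H2BE1 with 16 counts and a second H2AZ1 ID with 5 counts over all libraries, were not tested. Of replacement histones whose symbols fall outside the H1 to H4 pattern, macroH2A genes fell at both ages. MACROH2A1 had 91.9, 88.6 and 83.5 CPM at 6 months, 13.3, 37.6 and 22.8 CPM at 18 months and 13.5, 14.1 and 13.1 CPM at 4 years (edgeR adjusted p = 0.00142 and 0.000163). MACROH2A2 fell by 1.93 ± 0.38 at 18 months and by 2.38 ± 0.39 at 4 years (edgeR adjusted p = 0.0025 and 0.000613). CENPA, the H3 variant of centromeres, stayed between 1.23 and 3.76 CPM and was not called.

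The makeup of the H1 and H3 families changed accordingly. Deposited FPKM values, which allow for transcript length, were summed over each family. Testis linker genes took 0.816 ± 0.406% of the H1 sum at 6 months, 53.0%, 6.62% and 30.6% in the 18-month animals and 54.6 ± 3.14% at 4 years (SD, n = 3 each). H1-2, a replication-dependent linker gene, held 58.3 ± 1.17% at 6 months, 47.2 ± 12.2% at 18 months and 32.0 ± 2.94% at 4 years. In the H3 family H3-3D took 0.0859 ± 0.123% at 6 months, 41.0%, 11.2% and 31.3% in the 18-month animals and 42.8 ± 1.72% at 4 years. The replication-dependent genes together held 67.5 ± 12.2% of the H3 sum at 6 months, 43.3 ± 14.7% at 18 months and 30 ± 3.68% at 4 years. The sums themselves rose, so a lower share need not mean a lower level. The H1 sum was 1157 ± 25.4 FPKM at 6 months, 2483 ± 521 at 18 months and 2990 ± 237 at 4 years. The H3 sum was 826 ± 281, 1813 ± 85.1 and 1720 ± 51.5 FPKM in that order.

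**Figure D3:**
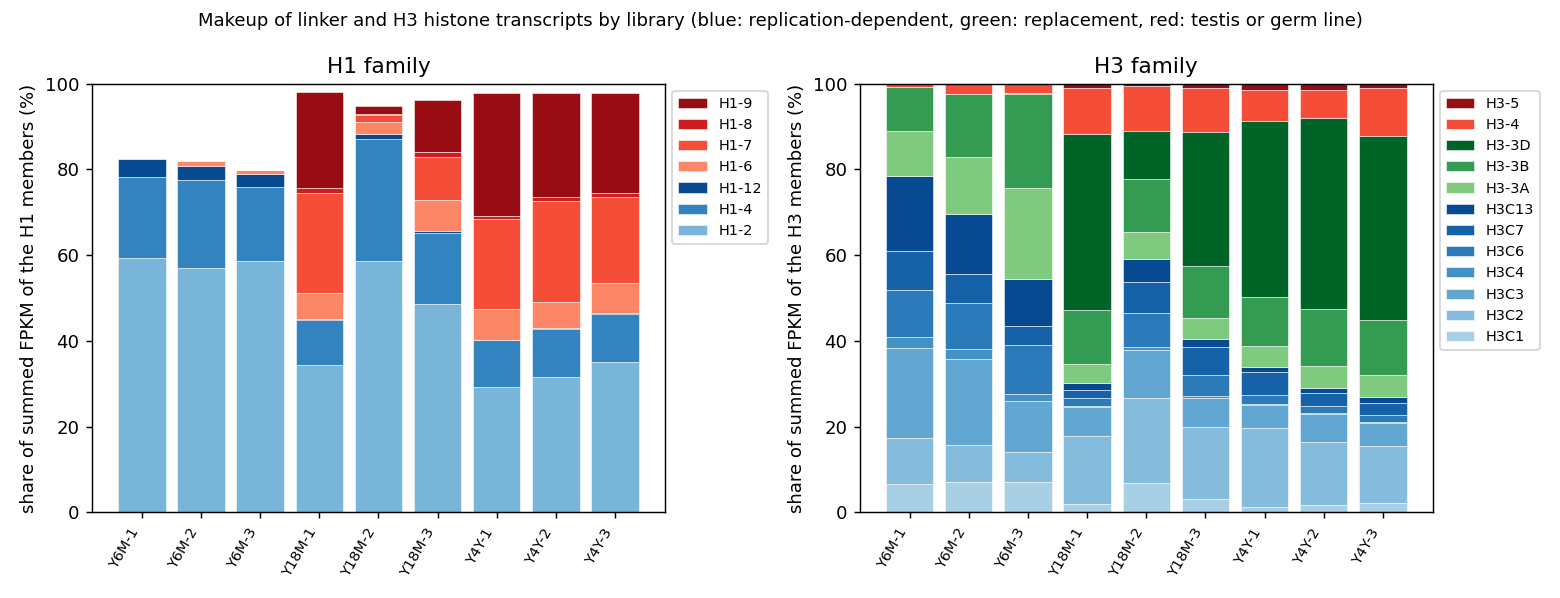
Share of the replication-dependent and testis H1 genes (left) and of each H3 gene (right) in the summed FPKM of its family, with 1 stacked bar per library; replacement H1 genes are in the sum but not drawn, so the left bars end below 100%. Testis linker genes (red) take 51.3% to 57.5% of the H1 sum in the 4-year libraries and 6.62% in Y18M-2, and H3-3D (dark green) takes 41.0% to 44.5% of the H3 sum at 4 years.

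At 4 years the replication-dependent genes split into a small rising and a larger falling set, while at 18 months both sets were of like size. Of 47 tested, 8 were higher and 9 lower at 18 months than at 6 months, and 30 were not called, with a median log2 fold change of 0.07. At 4 years 7 were higher and 21 lower than at 6 months, and 19 were not called, with a median of -0.85. All 4-year values lay below all 6-month values for 24 of the 47 genes, where 42% of all genes tested did so. Over all genes 32.7% were higher and 27.1% lower at 18 months, and 36.7% were higher and 37.2% lower at 4 years. Of the 47 genes, 36.2% were called at 18 months and 59.6% at 4 years, below the 59.9% and 73.9% of all genes. Falling genes were found in every family, with 1 of 3 H1, 6 of 13 H2A, 3 of 13 H2B, 5 of 7 H3 and 6 of 11 H4 genes lower at 4 years. Rising ones came from H2A (1), H2B (2), H3 (1) and H4 (3). Reads of these near-identical genes are uncertain: 35 of the 52 IDs have values that are not whole numbers in at least 1 library, as happens when reads are divided among copies. Among the rising genes, H4C11, H2BC13 and H2BC12 have such values in 9 libraries and H3C2 and H4C13 in 8. H2AC12 and H4C7 have them in 0.

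**Figure D4:**
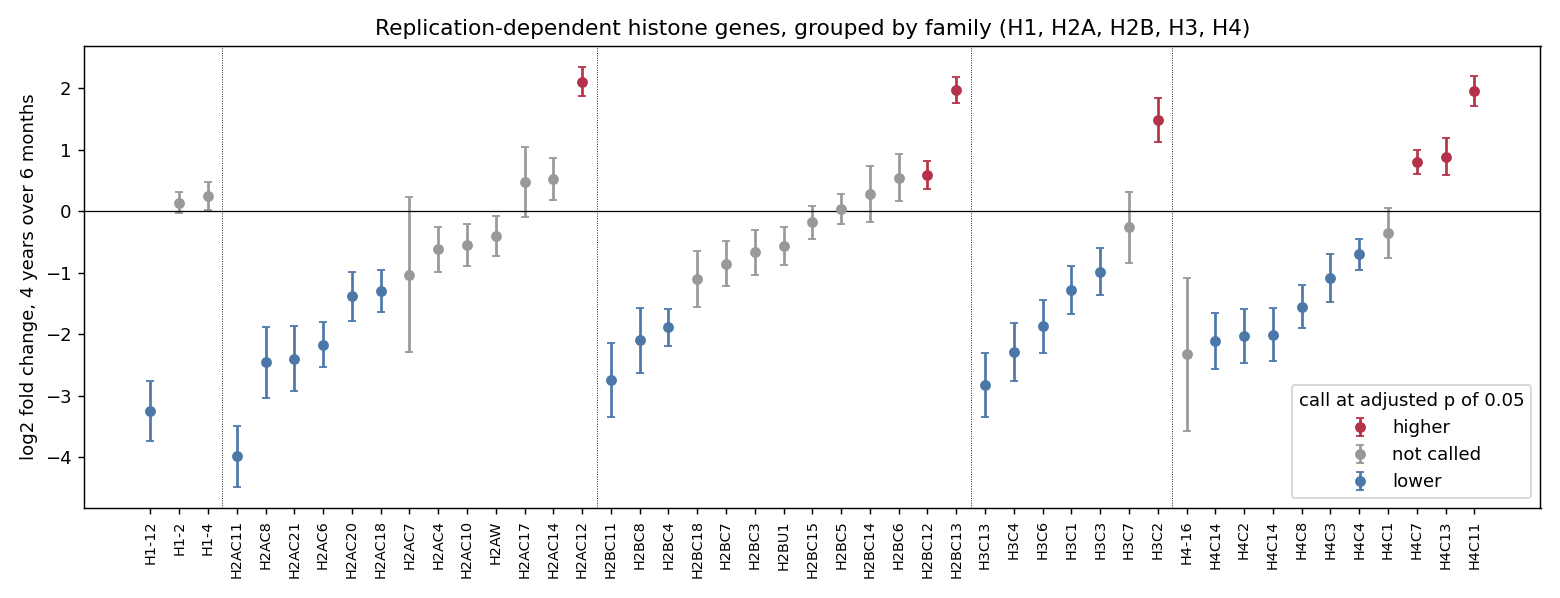
Log2 fold change at 4 years over 6 months for the 47 tested replication-dependent histone genes, grouped by family and ordered by size, with bars of ± 1 SE. Red points mark the 7 genes called higher (up to 2.11 for H2AC12) and blue points the 21 called lower (down to -3.99 for H2AC11).

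The rising set was led by 1 gene from each core family. H2AC12 (ENSBTAG00000054548), an H2A gene, had 22.5, 20.3 and 11.9 CPM at 6 months, 93.8, 91.9 and 107 CPM at 18 months and 87.1, 76.7 and 72.8 CPM at 4 years. H2BC13 (ENSBTAG00000052713), an H2B gene, had 137, 124 and 90.7 CPM at 6 months, 526, 558 and 440 CPM at 18 months and 476, 493 and 414 CPM at 4 years. The later libraries of both genes were all above the 6-month ones, and the 18-month animals lay close together. At 4 years over 6 months the log2 fold change was 2.11 ± 0.24 for H2AC12 and 1.98 ± 0.21 for H2BC13 (edgeR adjusted p = 0.000119 and 9.17e-05).

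H4C11 (ENSBTAG00000053627), an H4 gene, had 183, 159 and 110 CPM at 6 months, 680, 724 and 613 CPM at 18 months and 654, 615 and 491 CPM at 4 years. H3C2 (ENSBTAG00000050209), an H3 gene, had 62.4, 35.9 and 21.3 CPM at 6 months, 125, 130 and 121 CPM at 18 months and 139, 107 and 86.6 CPM at 4 years. Neither gene's later libraries overlapped its 6-month ones. At 4 years over 6 months the log2 fold change was 1.96 ± 0.24 for H4C11 and 1.48 ± 0.36 for H3C2 (edgeR adjusted p = 0.000139 and 0.00477). Unlike H1-9 and H1-7, but like H3-4, these 4 genes were nearly as high in 18-month animal 2 as in the other 18-month animals or higher.

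Smaller rises were seen for 3 further genes. H4C7 rose by 0.80 ± 0.20, H4C13 by 0.89 ± 0.30 and H2BC12 by 0.59 ± 0.23 at 4 years over 6 months (edgeR adjusted p = 0.00569, 0.0248 and 0.0428). H2BC12 (ENSBTAG00000038173), the most abundant H2B gene, had 840, 742 and 538 CPM at 6 months, 1511, 1268 and 1156 CPM at 18 months and 948, 1222 and 1028 CPM at 4 years. Its 4-year call was lost on leaving out any of 6 libraries (Y6M replicates 2 and 3, Y18M replicate 3 and each 4-year animal; adjusted p between 0.0562 and 0.155). The 4-year call of H4C13 was lost without Y6M replicate 2 or 3 or without Y4Y replicate 1 or 2 (adjusted p between 0.0506 and 0.0871). H2AC14 (ENSBTAG00000051969) was called higher at 18 months only (0.96 ± 0.35, edgeR adjusted p = 0.0384), and leaving out any of 6 libraries ended the call (adjusted p between 0.0535 and 0.0896). At 4 years its log2 fold change was 0.53 ± 0.34, and the difference between the 2 ages, tested directly, was not called (adjusted p = 0.441). H2BC6 (ENSBTAG00000031776) had 14.1 to 47.0 CPM at 6 months, 38.6 to 68.5 CPM at 18 months and 42.5 to 42.9 CPM at 4 years. It was not called at either later age against 6 months. Without Y6M replicate 1 it was called higher at both (edgeR adjusted p = 0.0105 and 0.0229). At 18 months it was also called without Y18M replicate 2 (0.0162), with library size alone (0.0206) and with DESeq2 (0.0386).

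The falling set held the most abundant H2A gene. H2AC6 (ENSBTAG00000039657) had 1154, 1194 and 1074 CPM at 6 months, 357, 1116 and 763 CPM at 18 months and 275, 251 and 232 CPM at 4 years. It was within the 6-month range in 18-month animal 2 and far below it in animal 1. At 4 years it fell by 2.17 ± 0.37 on the log2 scale against 6 months (edgeR adjusted p = 0.000709). At 18 months its change of -0.61 ± 0.35 was not called (adjusted p = 0.16), but without Y18M replicate 2 it was (-0.91, adjusted p = 0.0154). H2AC8 and H2AC21, a pair of H2A genes, fell by 2.46 ± 0.58 and by 2.40 ± 0.53 at 4 years (edgeR adjusted p = 0.00417 and 0.00301).

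The steepest fall was that of H2AC11 (ENSBTAG00000048599), an H2A gene with 19.7, 12.9 and 6.40 CPM at 6 months, 1.19, 2.29 and 1.52 CPM at 18 months and 0.715, 0.973 and 0.752 CPM at 4 years. It fell by 2.96 ± 0.46 at 18 months and by 3.99 ± 0.49 at 4 years on the log2 scale (edgeR adjusted p = 0.000732 and 0.000149). H1-12 (ENSBTAG00000031774), a clustered linker gene, had 98.1, 77.0 and 75.2 CPM at 6 months, 7.89, 34.4 and 19.3 CPM at 18 months and 6.37, 10.9 and 9.06 CPM at 4 years. It was below its 6-month range in all later animals and fell by 2.02 ± 0.46 at 18 months and by 3.25 ± 0.49 at 4 years (edgeR adjusted p = 0.00518 and 0.000391).

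In the H2B and H3 families, H2BC4 (ENSBTAG00000052382) had 167, 140 and 104 CPM at 6 months, 47.8, 105 and 74.2 CPM at 18 months and 33.7, 41.9 and 35.3 CPM at 4 years. It fell by 1.89 ± 0.30 at 4 years (edgeR adjusted p = 0.000526). H3C13 (ENSBTAG00000050881) had 104, 58.7 and 33.7 CPM at 6 months, 12.3, 36.6 and 13.8 CPM at 18 months and 9.80, 9.17 and 8.79 CPM at 4 years. It fell by 2.82 ± 0.52 at 4 years (edgeR adjusted p = 0.00112). For both genes the 4-year values were below every 6-month value, whereas those of 18-month animal 2 reached into the 6-month range. H2BC11, H2BC8, H3C4 and H3C6 fell by 2.75, 2.10, 2.29 and 1.87 on the log2 scale at 4 years.

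Of the H4 genes, both H4C14 IDs, H4C2, H4C8, H4C4 and 1 H4C3 ID were lower at 4 years than at 6 months. The H4C14 IDs fell by 2.11 ± 0.46 (ENSBTAG00000039213) and by 2.01 ± 0.43 (ENSBTAG00000032453), and H4C2 by 2.03 ± 0.44 (edgeR adjusted p = 0.00269, 0.00266 and 0.00259). Their 18-month calls lay closer to the threshold, with adjusted p between 0.031 and 0.0485, and each was lost on leaving out several single libraries (adjusted p up to 0.167). H4C4 (ENSBTAG00000040277), the most abundant H4 gene at 6 months, had 417, 295 and 213 CPM at 6 months, 259, 293 and 314 CPM at 18 months and 161, 207 and 201 CPM at 4 years. It fell by 0.70 ± 0.25 at 4 years (edgeR adjusted p = 0.0309).

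The shift between members of 1 family was large where 2 genes moved in opposite directions. H2AC6 took 52.7 ± 5.11% of the summed H2A FPKM at 6 months, 32.9 ± 7.96% at 18 months and 20.3 ± 0.460% at 4 years, while H2AC12 took 1.40 ± 0.269%, 8.25 ± 2.63% and 10.8 ± 0.445% (SD, n = 3 each). H4C11 took 16.2 ± 1.06% of the H4 sum at 6 months, 44.9 ± 1.71% at 18 months and 47.0 ± 4.14% at 4 years. The share of H4C4 was 33.9 ± 1.61% at 6 months, 20.2 ± 2.47% at 18 months and 16.0 ± 2.66% at 4 years. In the H2B family H2BC13 took 12.5 ± 0.427%, 29.6 ± 1.11% and 32.3 ± 1.85% at the 3 ages in order, and H2BC4 took 14.5 ± 0.346%, 4.42 ± 1.61% and 2.59 ± 0.131%. H2BC12 kept a steady share, with 42.5 ± 0.733% at 6 months, 43.1 ± 3.87% at 18 months and 42.1 ± 2.96% at 4 years. Since H4C11, H2BC13 and H2BC12 have values that are not whole numbers in 9 libraries, their shares depend on how reads were divided among copies. The family sums also changed. From 6 months to 4 years they went from 2346 to 1700 FPKM for H2A, from 1922 to 3699 for H2B and from 885 to 1488 for H4 (means).

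The clustered linker genes H1-2 and H1-4 did not pass the edgeR test with TMM scaling at either age, but did under several alternatives. H1-2 (ENSBTAG00000011677) had 660, 648 and 701 CPM at 6 months, 829, 883 and 804 CPM at 18 months and 699, 807 and 715 CPM at 4 years. Its log2 fold change was 0.32 ± 0.17 at 18 months and 0.14 ± 0.17 at 4 years over 6 months (edgeR adjusted p = 0.12 and 0.448). H1-4 (ENSBTAG00000047206) had 181, 200 and 177 CPM at 6 months, 220, 369 and 233 CPM at 18 months and 223, 245 and 195 CPM at 4 years (0.56 ± 0.23 and 0.25 ± 0.23, edgeR adjusted p = 0.0584 and 0.337). Without Y18M replicate 2 both were called higher at 18 months (H1-2 0.41, adjusted p = 0.0292; H1-4 0.40, adjusted p = 0.0307), and H1-4 also without Y18M replicate 1 (0.70, adjusted p = 0.0248). At 4 years H1-4 was called without Y18M replicate 2 (0.37, adjusted p = 0.0242) and with only the libraries of those ages (0.0155). With library size alone the 18-month adjusted p was 0.00636 for H1-2 and 0.00926 for H1-4, and with DESeq2 it was 0.00193 and 0.00968. With relative log expression scaling H1-4 was called at 18 months (0.0254). At 4 years H1-2 was called with library size alone (0.0465), with only the libraries of those ages (0.0461) and with DESeq2 (0.017).

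Some uncalled genes differed more among animals of 1 age than between ages. H2AC7 (ENSBTAG00000053792), an H2A gene, had 19.6, 17.9 and 4.07 CPM at 6 months, 1.63, 35.2 and 23.0 CPM at 18 months and 18.2, 1.27 and 0.950 CPM at 4 years. It was thus low in Y4Y-2, Y4Y-3 and Y18M-1 and about an order of magnitude higher in most of the others. H2AC17 (ENSBTAG00000053621) and H3C7 (ENSBTAG00000048666), an H2A and an H3 gene, were likewise highest of the 4-year animals in number 1, with 61.9, 23.6 and 18.5 CPM and with 40.9, 21 and 18.2 CPM. These 3 genes were chosen after their values were seen. Their reads are uncertain, since H2AC17 and H3C7 have values other than whole numbers in 9 libraries and H2AC7 in 5. Without Y4Y replicate 1 the log2 fold change of H2AC17 at 4 years over 6 months was -0.25, against 0.47 with it, and neither was called.

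Over the 47 genes the libraries also had an order within an age. Y6M-3 was the lowest of the 6-month libraries for 46 of 47 genes, where it was lowest for 25.8% of all genes tested. Among the 18-month libraries Y18M-2 was highest for 38 genes and Y18M-1 lowest for 33, the reverse of the testis class, in which Y18M-2 was lowest for 13 of 13 genes and Y18M-1 highest for 11. The share of all genes with these orders within 18 months was not counted, so they cannot be called particular to histone genes. Y18M-2 was the highest of all 9 libraries for 21 of the 47 genes, where it was highest for 11.5% of all genes tested. The S phase list summed to 911, 805 and 712 CPM in the 6-month animals, in the same order as the histone genes, but to 1536, 1337 and 1447 CPM in the 18-month animals, where animal 2 was lowest. The part of the library differences in these orders was not tested.

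**Figure D5:**
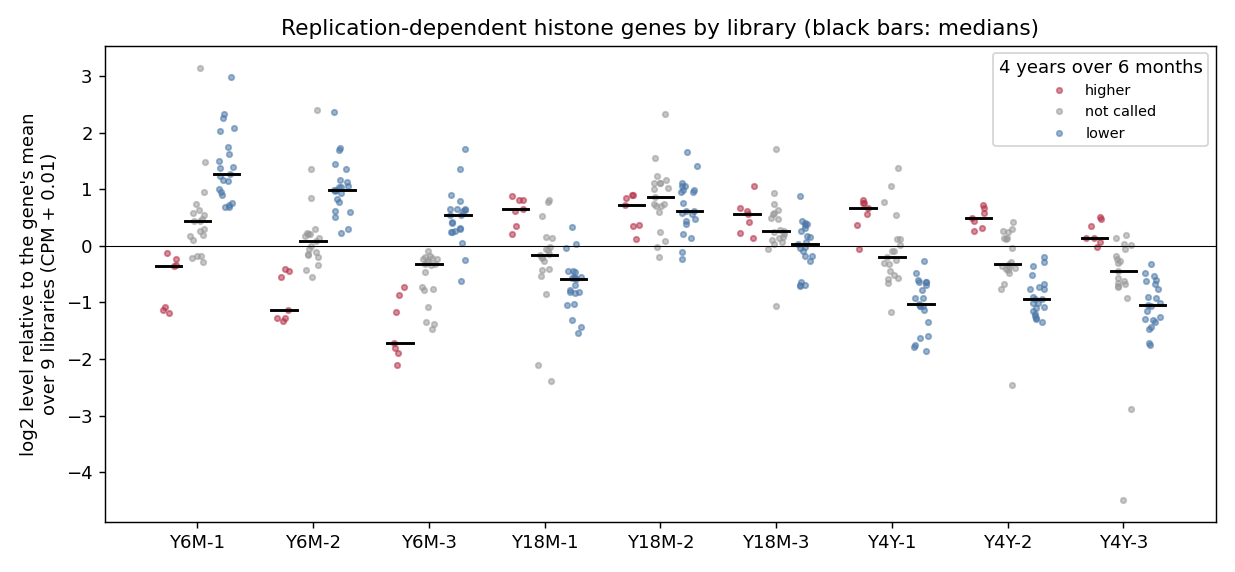
Log2 level of each of the 47 tested replication-dependent genes relative to its own mean over 9 libraries, from CPM + 0.01, with points coloured by the call at 4 years over 6 months and black bars at the median of each set. The 21 falling genes have medians of 1.27, 0.99 and 0.54 in the 6-month libraries, -0.59, 0.62 and 0.04 in the 18-month ones and -1.03, -0.94 and -1.05 in the 4-year ones.

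Between 4 years and 18 months most replication-dependent genes had lower fitted levels at 4 years although none was called. The log2 fold change at 4 years over 18 months was below 0 for 45 of the 47, with a median of -0.89, against -0.03 over all genes tested, and 18 of 47 had every 4-year value below every 18-month value, where 13.6% of all genes did. Without Y18M replicate 1, the 18-month library closest to the 4-year ones in spermatid markers, 18 of the 47 genes were called lower at 4 years than at 18 months and none higher. Then 20 of the 73 tested members of all classes were called lower and 1 higher. Of all 16988 genes tested without that library, 5607 were called, 3360 lower and 2247 higher. The share of members called was thus below that of all genes. The share of the 47 called lower was above the share of all genes called lower. H2AC6 fell by 1.89 ± 0.20 and H2BC8 by 2.09 ± 0.22 in that comparison without the library (edgeR adjusted p = 0.00612 for each), and H2BL1 was higher by 2.43 ± 0.78 (edgeR adjusted p = 0.0432). Leaving out Y18M replicate 2 or 3 instead, no member was called. With all libraries DESeq2 called H2AC6, H2AC8 and H2AC21 lower at 4 years (log2 fold change -1.46, -1.97 and -1.87, adjusted p = 0.0054, 0.0198 and 0.0202). Of the members, the authors' deposited table for these ages, which holds 1.11% of all genes, lists H2AC6 alone, given as 18 months over 4 years with a log2 fold change of 1.65 (FDR 0.0458).

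Of 14 tested genes for the 3-prime end processing of histone mRNA, 5 were higher and 1 lower at 18 months, and 8 were higher and 3 lower at 4 years, both against 6 months. Of all genes tested, 32.7% were higher and 27.1% lower at 18 months, and 36.7% were higher and 37.2% lower at 4 years, so that the share higher at 18 months was near that of all genes. The median log2 fold change of the 14 was 0.30 at 18 months and 0.64 at 4 years. SLBP, which binds the stem-loop of replication-dependent histone mRNAs, had 15, 13.6 and 14.4 CPM at 6 months, 59.2, 59.7 and 54.8 CPM at 18 months and 53.1, 49.9 and 49.5 CPM at 4 years. It rose by 2.01 ± 0.14 at 18 months and by 1.83 ± 0.14 at 4 years on the log2 scale (edgeR adjusted p = 4.69e-05 and 3.75e-05), and was not lower in 18-month animal 2 than in the others. SYMPK, a scaffold of the cleavage complex, rose by 2.82 ± 0.28 at 4 years, whereas CSTF2T, a cleavage stimulation factor, fell by 1.42 ± 0.19. NPAT, the coactivator of replication-dependent histone genes, was not called (0.19 ± 0.19 at 4 years), and LSM11, a part of the U7 particle, fell by 1.55 ± 0.43 at 4 years; both were named after their values were seen.

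Of 14 tested IDs for replication-coupled chaperones, 8 were higher and 1 lower at 18 months, and 7 were higher and 3 lower at 4 years, with medians of 0.77 and 0.65. CHAF1B, a subunit of the CAF-1 complex, had 15.9, 14.2 and 13.5 CPM at 6 months, 84.7, 41.2 and 73.3 CPM at 18 months and 88.0, 99.7 and 68.9 CPM at 4 years. ASF1B, a chaperone of H3 and H4, rose by 2.63 ± 0.29 and HAT1, which acetylates new H4, by 1.36 ± 0.20 at 4 years (edgeR adjusted p = 0.000104 and 0.000331). Of 27 IDs for replication-independent chaperones and exchange factors, 7 were higher and 8 lower at 18 months, and 10 were higher and 12 lower at 4 years, with medians of 0.03 and -0.04. These shares were near those of all genes (32.7% higher and 27.1% lower at 18 months, 36.7% and 37.2% at 4 years). UBN1, a partner of the H3.3 chaperone HIRA, rose by 2.67 ± 0.29 at 4 years, and ZNHIT1, a subunit of the complex that deposits H2A.Z, fell by 1.96 ± 0.25.

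Of 21 tested IDs for S phase genes, 11 were higher and 1 lower at 18 months, and 10 were higher and 2 lower at 4 years, with medians of 0.71 and 0.54, where 32.7% of all genes were higher and 27.1% lower at 18 months, and 36.7% higher and 37.2% lower at 4 years. The list summed to 809 ± 99.2 CPM at 6 months, 1440 ± 99.7 CPM at 18 months and 1378 ± 25.2 CPM at 4 years (SD, n = 3 each). MCM4, a subunit of the replicative helicase, rose by 2.22 ± 0.21 and UHRF1, a chromatin factor of S phase, by 2.10 ± 0.32 at 4 years (edgeR adjusted p = 6.32e-05 and 0.000449). With TMM scaling the replication-dependent histone genes had equal mean sums at 4 years and 6 months, an equality that rests on that scaling.

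Of the 45 IDs with a common histone symbol from a protein match, 5 could be tested, and 21 of the 45 carried the symbol H2BC21. H2B-I (ENSBTAG00000050122), matched to an H2B, had 147, 151 and 114 CPM at 6 months, 34.2, 123 and 64.0 CPM at 18 months and 32.6, 31.8 and 30.3 CPM at 4 years. It fell by 2.12 ± 0.40 at 4 years (edgeR adjusted p = 0.0013). One H4-I ID (ENSBTAG00000053736), matched to an H4, fell by 2.81 ± 0.72 (edgeR adjusted p = 0.00659), and the other tested H4-I ID was not called (0.38 ± 0.29). The single H2BC21 ID with counts (ENSBTAG00000033600) had none at 6 months and was at least 23.8-fold higher at 18 months and at least 26.3-fold higher at 4 years, with 0.068 CPM in Y18M-2 and up to 2.42 CPM in Y18M-1.

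The authors' deposited tables listed 29 members as different between 18 months and 6 months, where they list 34.6% of all 22183 genes, and 40 between 4 years and 6 months, where they list 47.6%. All 29 and all 40 were among the 37 and 51 called here, with the same direction. The smallest change among members they list was 1.03 on the log2 scale in either direction. No fold cut was used here, so the counts may not rest on like thresholds. Since both use the same counts, this compares methods and not samples.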

How the data were processed

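Gene values came as estimated counts and FPKM, deposited by the authors in 1 table of 22183 genes. Per the submitters' processing notes, fastp 0.18.0, HISAT2 2.1.0 and StringTie 1.3.4 were used, with build UMD3.1, a cattle assembly. The library kit is not stated to keep strand, so reads of a histone gene and of an antisense partner cannot be told apart. The count of back-splice reads per circular RNA and the log2 fold changes with their FDR values (adjusted p-values) were also deposited by the authors.

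Here estimated counts were rounded and fitted in edgeR 4.0.16 (R 4.3.3): TMM scaling, filterByExpr, a quasi-likelihood model of 9 libraries with age as factor (6 residual degrees of freedom) and Benjamini-Hochberg adjustment over all 16742 genes tested, at 0.05. Standard errors come from the fold change and the F statistic, and the steps were tested on simulated data. DESeq2 1.42.0 was an alternative. A fold against a group with no count uses 3 counts over that group. Intervals cover counting error only. FPKM served only for shares within a family.

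The members, classes and gene lists were chosen with earlier results of these data known. One replacement member is not reported here. Named genes are every other tested testis and replacement member, the 3 smallest p at 4 years over 6 months per replication-dependent family and direction, and up to 4 genes per list. Others are named as counted or extreme members. The 9 small RNA libraries were not used.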

Additional observations from a re-analysis of the deposited data

Results flagged for a closer look

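One signal lay outside the gene counts. The deposited circular RNA table holds 23 circular RNAs whose source gene is a histone member, and 20 of them are annotated as antisense. Of these, 19 are assigned to a single H2BC21 ID (ENSBTAG00000051312), with 1391 back-splice reads over all 9 libraries, while the gene itself had a linear count of 0. The reads per library were 63, 124 and 76 at 6 months, 179, 78 and 191 at 18 months and 212, 270 and 198 at 4 years. It is listed because it comes from data outside the gene counts, and no control libraries exist for it. The 18-month animal 2 was again within the 6-month range. The difference between ages was not tested.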

How the results depend on the processing

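In the testis class 13 members were called higher at both later ages under every alternative run, except that 10 of 10 tested were at 18 months with only those 2 ages' libraries. Where a weaker filter or a left-out library let in the 14th member, the second H1-7 ID, it was not called. Without composition scaling (library size alone) all genes had a median log2 fold change of 0.43 at 18 months and 0.23 at 4 years over 6 months (0.13 and 0.11 with relative log expression factors). At 18 months 83.8% of called members were then higher (31 higher and 6 lower), against 64.9% (24 and 13) as reported, and 72.6% against 54.7% of all called genes. The 6-month replacement sum was then 914.4 CPM. At 4 years over 18 months, all genes called numbered 0 with only the libraries of these 2 ages, 874 with DESeq2 and between 0 and 5607 on leaving out single libraries, the 5607 without Y18M replicate 1. Histone members called in that comparison numbered 3 with DESeq2 and between 0 and 21 on leaving out single libraries. Members called at 18 months over 6 months numbered 26 with only those ages' libraries, against 37, and 49 without Y18M replicate 2. The cause was not tested.

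Some uncalled fold changes changed sign or came to 0.00. With library size alone these were H2AZ2 (0.24) and H2AC21 (0.00) at 18 months over 6 months and H4C7 (-0.05) and H4C13 (-0.08) at 4 years over 18 months. H3-3A and H3-3B were each 0.07 at 4 years over 18 months with relative log expression factors and with DESeq2. On leaving out single libraries the range crossed 0 for H2AZ2 (-0.23 to 0.02) at 18 months over 6 months and for H2AC17 (-0.25 to 0.99) at 4 years over 6 months. At 4 years over 18 months it did so for H2AZ1 (-0.23 to 0.03), H3-3A (-0.05 to 0.06), H3-3B (-0.07 to 0.08), H1-8 (-0.35 to 0.51), H2AC1 (-0.15 to 0.91), H2BW1 ENSBTAG00000046436 (-0.24 to 0.96), H2AC17 (-0.98 to 0.08), H4C7 (-0.05 to 0.20) and H4C13 (-0.10 to 0.12).

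Animals of the same replicate number at different ages did not deviate together (correlations between -0.135 and 0.104). Animals of different numbers had correlations between -0.163 and 0.138. With 3 animals per age this cannot exclude a pairing, and the main fit used none. With a replicate block 34 members were called at 18 months and 47 at 4 years, both over 6 months, and 0 at 4 years over 18 months; over all genes the counts were 9439, 11939 and 1. Calls lost under the block were those of H3-3B, H4C2 and H4C14 (ENSBTAG00000039213) at 18 months and of H2BC12 at 4 years, among the genes named.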

Other observations

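Some histone genes fall outside the symbol pattern and go the same way as the testis class. The 2 IDs with the symbol H2ab1, described as testis or Barr-body-deficient H2A, held more counts than the H2AB2 member. The first (ENSBTAG00000049451) had 0, 0 and 7 counts at 6 months, 2303, 207 and 1136 at 18 months and 2995, 3635 and 2013 at 4 years. The second (ENSBTAG00000052113) had 0, 0 and 4 counts at 6 months, 1546, 73 and 654 at 18 months and 1791, 2228 and 1316 at 4 years. An H2B ID with the symbol AGAP012199 (ENSBTAG00000014287) had no count at 6 months, 71, 7 and 24 at 18 months and 55, 101 and 27 at 4 years. In all 3 the 18-month animal 2 was the lowest of its age. These are raw counts, chosen after their values were seen and given without a test.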
